A study of Danio rerio with 6 samples.

Results

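The LRIT genes and the neuronal pentraxin genes were described in the retina of adult wild-type zebrafish and of samd7 mutants. Samd7 is a photoreceptor protein that represses genes in mouse rods. They were taken as every gene of the deposited table whose name begins with lrit1, lrit2, lrit3 or nptx, which gave 9 of 14781 genes. These were the 5 LRIT genes lrit1a, lrit1b, lrit2, lrit3a and lrit3b and the 4 pentraxin genes nptx1l, nptx2a, nptx2b and nptxrb. A further family gene in RefSeq, nptxra, was not analysed here. Of the 9, lrit3b and nptx2b drew attention to the families because of their large falls in the mutants, so their values are given as a description with no test. The other 7 were chosen by name and were tested. The libraries came from 3 WT males and 3 males homozygous for the samd7 allele stl888 (samd7-/-), all aged 3 months and raised from intercrossed heterozygotes. Both retinas of 1 fish were pooled into each library, so that the replicates were separate animals. The strain is not given in the sources used here.

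LRIT proteins are single-pass membrane proteins with leucine-rich repeats, an immunoglobulin domain and a fibronectin domain. In mouse retina LRIT3 is made by rods and cones and sits at their output synapse, where it is needed across the cleft to place nyctalopin and the TRPM1 channel on ON bipolar cells, the neurons that respond to light increments. Human LRIT3 is a gene of congenital stationary night blindness. Neuronal pentraxins are secreted or membrane-bound proteins that assemble into complexes and gather AMPA-type glutamate receptors at excitatory synapses.

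The libraries held between 20186266 and 29117026 reads in genes. Values below are normalised read counts, that is, reads per gene that the authors divided by a size factor per library, and summaries are the mean ± SD with n = 3 fish per genotype. Each log2 change is the mutant mean less the wild-type mean of log2(value + 1), with adjusted p from limma (Benjamini-Hochberg over 11335 tested genes, threshold 0.05). At this threshold 202 genes were lower in the mutants (1.78%) and 94 higher (0.829%). These counts were 11 and 6 without wild-type replicate 2, 52 and 17 without wild-type replicate 3, 21 and 8 without mutant replicate 1, and 19 and 4 without mutant replicate 3. They were 236 and 130 without wild-type replicate 1, and 149 and 98 without mutant replicate 2. Scaled by library totals, 141 genes were lower and 1987 higher, and the median change of all tested genes moved from 0.01 to 0.36. The samd7 transcript overlapped between the genotypes (4646 ± 501 and 3745 ± 1328, adjusted p = 0.466), so its level did not check the labels. A pair of libraries stood apart in several rod markers. Mutant replicate 1 held a summed rod marker level of 533619, against 1955010 and 1544900 in mutant replicates 2 and 3. It was the lowest mutant library for each tested rod marker except nr2e3, for which it was the highest (5759 against 4230 and 4754). Wild-type replicate 1 held 1420939 of the rod opsin rho, against 1983177 and 2349076. It was also the lowest WT library for gnat1, pde6a, nrl and rom1a. However, it was the highest for saga (42784 against 36053 and 24861) and nr2e3 (6784 against 2324 and 1685), and sagb lay between. It was thus not low in all rod markers. Markers of the retina's neurons and Müller glia were present in each library.

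Of the 9 members, 5 had every mutant library below every wild-type library, namely lrit3a, lrit3b, lrit1b, lrit2 and nptx2b, and none had every mutant library above. Over all tested genes 14.8% were apart in the lower direction and 13.3% in the higher. With library totals as the scaling lrit2 overlapped and nptxrb was apart in the higher direction, which left 4 lower and 1 higher (3.22% and 43.7% of all tested genes). These counts include lrit3b and nptx2b, which the choice of members used. Among the 7 genes chosen by name, limma called 0 in either direction, while 3 were lower and 0 higher at an unadjusted p under 0.05 (11.6% and 9.38% of all tested genes). The quasi-likelihood test of edgeR called 1 of the 7, lrit3a, lower (1.38% of all genes) and 0 higher (0.803%). DESeq2 called 3, lrit3a, lrit1b and lrit2, lower (6.63%) and 0 higher (4.14%). The same 3 were under an adjusted p of 0.05 in the authors' deposited table, where 6.30% of genes with an adjusted p were called lower. The deposited values come from the same libraries, so they are not separate support.

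**Figure D1:**
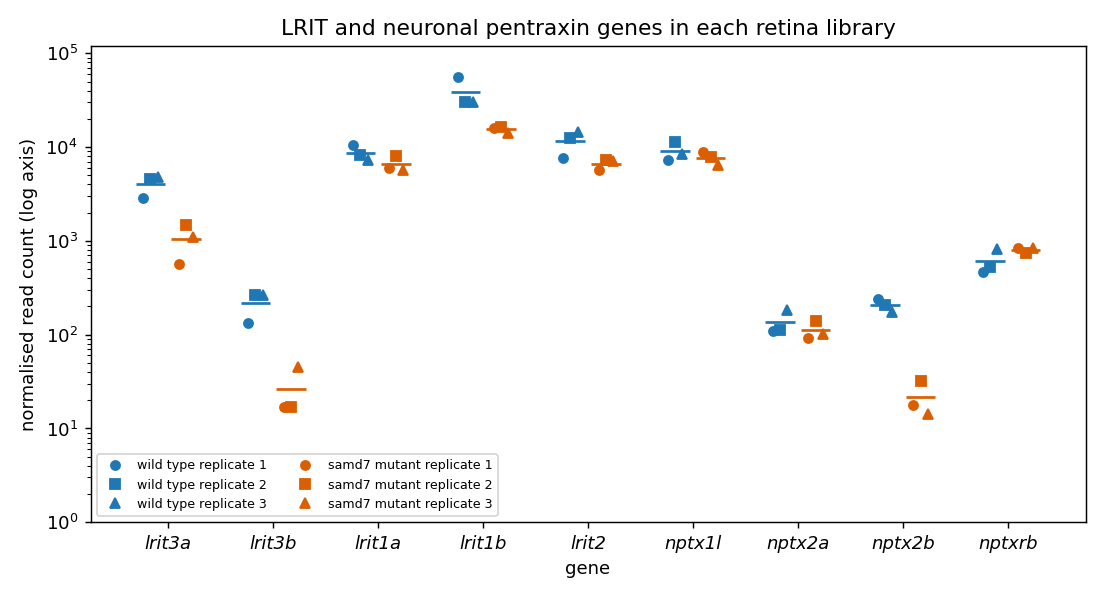
Normalised read count (log axis) of each LRIT and neuronal pentraxin gene in the 3 wild-type and 3 samd7 mutant libraries; points are libraries, shapes are replicate numbers and bars are genotype means. The genotypes are apart for lrit3a, lrit3b, lrit1b, lrit2 and nptx2b, with a mean of 206 for nptx2b in WT and 21.5 in mutant fish.

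The gene lrit3b, a zebrafish copy of LRIT3, had values of 132, 262 and 264 in the WT fish (replicates 1, 2 and 3) and 16.8, 16.7 and 44.9 in the mutant fish, in the same order of replicates. Every mutant lay far below the lowest wild-type fish, and wild-type replicate 1 was low among its group while mutant replicate 3 was high among the mutants. The means were 219 ± 75.5 and 26.1 ± 16.2, an 8.39-fold difference (log2 change -3.11, SE 0.47). The log2 change was -2.88 without mutant replicate 1 and -3.44 without wild-type replicate 1. By size of change it was number 14 from the lowest of 11335 tested genes, which follows from its choice for a large fall. The mutant values rest on 18, 16 and 53 reads, with 95% Poisson intervals of 10.7 to 28.4, 9.15 to 26.0 and 39.7 to 69.3. Intervals cover counting error of reads only, and can be too narrow, as PCR copies are not independent molecules. The interval of mutant replicate 3 lay above those of the other mutants. Whether it differed from them by more than the counting error of molecules was not resolved.

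The paralog lrit3a, the other copy of LRIT3, was apart between the genotypes too. Its values were 2897, 4562 and 4803 in the WT fish and 571, 1475 and 1095 in the mutant fish. Replicate 1 was the lowest within each genotype. The mutant mean of 1047 ± 454 was 25.6% of the wild-type mean of 4087 ± 1038, but with an adjusted p of 0.0511 (log2 change -2.03, SE 0.38) it was not called. Leaving out mutant replicate 1 gave a log2 change of -1.65 (adjusted p = 0.124), and leaving out wild-type replicate 1 gave -2.26 (0.0571). In 7 of 16 alternatives it was called, for example by edgeR (adjusted p = 0.0497), by DESeq2 (4.70e-06) and without mutant replicate 2 (0.0485). The highest adjusted p of any alternative was 0.184, without mutant replicate 3. In the retina as a whole, fewer cells of a type and less RNA per cell cannot be told apart, here or in the results below.

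Within each fish, lrit3b was set against lrit3a. The log2 ratio of their read counts was -4.45, -4.12 and -4.18 in the WT fish and -5.09, -6.46 and -4.61 in the mutant fish. Each mutant thus had a smaller lrit3b share than each wild-type fish, with means of -4.25 ± 0.18 and -5.39 ± 0.96. This partly follows from the choice of lrit3b for its large fall. The mutants differed much more among themselves, but their lrit3b values rest on 18, 16 and 53 reads, so counting error adds to this spread. The ratio compares read counts, not transcript numbers, since levels were not scaled to transcript length.

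Of the LRIT1 copies, lrit1b was apart between the genotypes and lrit1a was not. LRIT1 lies at photoreceptor synapses in mouse and shapes cone transmission. The values of lrit1b were 55626, 30487 and 30226 in the WT fish and 16194, 16438 and 14252 in the mutant fish. Wild-type replicate 1 stood high and the mutants lay close together. At 40.3% of the wild-type mean, the gene missed the threshold (38780 ± 14590 and 15628 ± 1198, adjusted p = 0.0537), with a log2 change of -1.25 (SE 0.25). When wild-type replicate 1 was left out the difference was smaller but was called (log2 change -0.96, adjusted p = 0.0203), and it was also called in 3 other alternatives, which were DESeq2 (6.83e-05), library totals (0.0498) and the replicate block (0.0428).

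For lrit1a the WT fish held 10527, 8223 and 7250 and the mutant fish 6041, 8048 and 5744. Mutant replicate 2 lay within the wild-type range, and the difference did not pass (8666 ± 1683 and 6611 ± 1253, log2 change -0.39, SE 0.19, adjusted p = 0.292). With library totals as the scaling its log2 change was -0.04. Within each fish, the log2 ratio of lrit1b to lrit1a had a mean of 2.12 ± 0.26 in WT and 1.25 ± 0.20 in mutant fish. The ratio was lower in 3 of 3 mutants than in any wild-type fish. The two-sided exact permutation p was 0.1 (adjusted p = 0.4 over 4 ratios), and 0.1 is the smallest value this design allows, so it could not show that the copies differ.

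The gene lrit2 is next to lrit1a in the RefSeq annotation of assembly GRCz12tu. Its WT values were 7597, 12661 and 14381, and its mutant values 5636, 7223 and 7040. The genotypes were apart by a small margin, between wild-type replicate 1 and mutant replicate 2. The mutant mean was 57.4% of wild type (11546 ± 3527 and 6633 ± 868), with a log2 change of -0.76 (SE 0.25) and an adjusted p of 0.157. Leaving out wild-type replicate 1 made it pass (log2 change -1.03, adjusted p = 0.0255), and DESeq2 called it on all libraries (0.0287). The log2 ratio of lrit2 to its neighbour lrit1a had means of 0.38 ± 0.76 (WT) and 0.01 ± 0.24 (mutant) (exact permutation test, two-sided, p = 0.5, adjusted p = 0.5). Wild-type replicate 1 was thus high in lrit1a and lrit1b and low in lrit2, lrit3a and lrit3b.

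**Figure D2:**
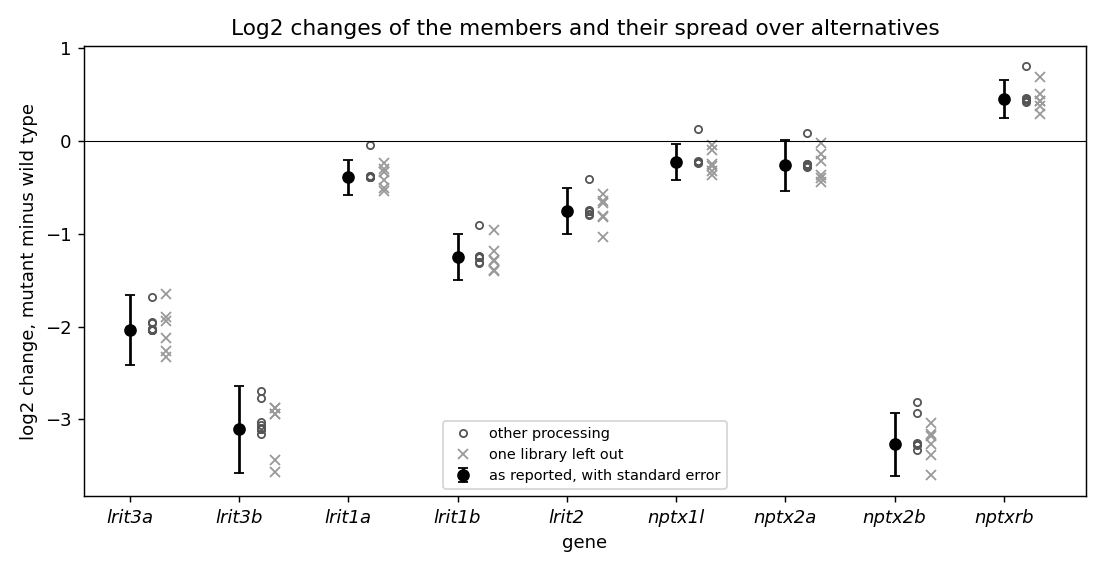
Log2 change, mutant minus wild type, of each member with its standard error (filled points), under other processing (open circles) and with one library left out (crosses). The changes of lrit3a, lrit3b, lrit1b, lrit2 and nptx2b stay below 0 throughout, while nptx1l and nptx2a cross 0 with library totals as the scaling, at 0.13 and 0.087.

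The medians of the photoreceptor markers were below 0, as were the changes of the 5 LRIT genes. Of 8 tested rod markers 7 had negative changes and 1, nr2e3, a positive one (0.71). Limma and edgeR each called 1 of the 8 lower and 0 higher (median log2 change -1.05), and DESeq2 called 2 lower. The summed level of the rod markers was 1827073 to 2933273 in wild type and 533619 to 1955010 in the mutants. Of 9 tested cone markers limma and edgeR each called 3 lower and 0 higher (median -1.17), and DESeq2 called 7 lower. The shares of all tested genes called lower were 1.78% with limma, 1.38% with edgeR and 6.63% with DESeq2. At an unadjusted limma p under 0.05, 11.6% of all tested genes were lower and 9.38% higher. The cone sum was 1754512 to 2014369 in wild type and 742041 to 833680 in the mutants. The opsin rho makes up most of the rod sum. Of 9 tested bipolar markers limma called 0, with 1 lower and 1 higher at an unadjusted p under 0.05 and 0 called by edgeR or DESeq2. Their sum overlapped (64958 to 102578 and 87562 to 104970). The gene cabp5a made up most of this sum (59295 of a mean of 84679 in WT and 67923 of 95066 in mutant fish). Markers of other retinal neurons were examined as well. Of 7 tested horizontal cell markers limma and edgeR called 0, with 3 lower and 0 higher at an unadjusted p under 0.05 and 2 called lower by DESeq2 (median -0.19, and 0.16 scaled by library totals). Their sum was 15899 to 19477 in wild type and 10555 to 13480 in the mutants, without overlap. The gene ompa made up most of this sum (means of 14214 in WT and 8230 in mutant fish). Of the 7 horizontal cell markers 4 had negative and 3 positive changes. Of 12 ganglion cell markers gap43 was listed at 0 in every library, and the 11 tested all had positive changes (median 0.75), 8 of them at an unadjusted p under 0.05. Limma and edgeR each called 1 higher (0.829% and 0.803% of all tested genes) and DESeq2 3 (4.14%). The limma call was sncga, a synuclein gene named after its values were seen, at 4067 ± 232 in WT and 6003 ± 134 in mutant fish (log2 change 0.56, SE 0.09, adjusted p = 0.0380). The ganglion sums were 32989 to 43931 and 43152 to 50036 and overlapped. The gene sncgb held 22066 of the mean WT sum of 37490 and changed little (mutant mean 22712, log2 change 0.05). Of the tested ganglion markers only sncgb and nefma overlapped, and the others were apart in the higher direction (13.3% of all tested genes). The markers' part in the LRIT differences was not tested, but each LRIT gene could be set against the markers of its own fish, a comparison added after the data were seen.

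Against the summed cone markers, lrit1b had a log2 ratio of -5.67 ± 0.60 in WT and -5.68 ± 0.03 in mutant fish, a difference of -0.01 (exact permutation test, two-sided, p = 1). A test of 3 against 3 fish cannot show that the ratios are equal. In WT they were -4.98, -6.05 and -5.97, and replicate 1 had the highest lrit1b with the lowest cone sum. The marker pde6h held 911370 of the mean WT cone sum of 1888497. Its values were 521790, 1171454 and 1040866 in the WT fish, so the low sum of replicate 1 came mainly from pde6h. Of the other cone markers, gnat2, pde6c, arr3a, arr3b, gngt2b and grk7a were highest in wild-type replicate 1. The marker gngt2a was lowest there and gnb3b lay between. Ratios to the cone sum thus lean heavily on pde6h. Cone marker changes ran from -7.99 for arr3a to 0.74 for arr3b, the 1 positive of 9. Relative to the cone markers lrit1a was higher by 0.85 in the mutants (-7.78 ± 0.35 and -6.93 ± 0.22), with 3 of 3 mutants above all wild-type fish (exact permutation p = 0.1). For lrit2 the difference was 0.48 (exact permutation p = 0.2). In the mutants the cone and rod sums were themselves at 0.424 and 0.553 of their wild-type means. A gene of unchanged level would thus also have higher ratios to them, so a higher ratio is not a rise of the gene. For lrit3a the difference was -0.80 against the cone markers (-8.88 ± 0.32 and -9.68 ± 0.73, exact permutation p = 0.2). Against the rod markers the ratio of lrit3a was -9.22 ± 0.10 in WT and -10.23 ± 0.32 in mutant fish, lower in 3 of 3 mutants by 1.01 (exact permutation p = 0.1). The rod ratios of lrit1a, lrit1b and lrit2 overlapped between the genotypes. Their differences were 0.64 for lrit1a (exact permutation p = 0.4), -0.23 for lrit1b (exact permutation p = 0.5) and 0.27 for lrit2 (exact permutation p = 0.9). For the copy lrit3b, a description only, the log2 difference was -1.93 against the cone markers and -2.14 against the rod markers, with every mutant below every wild-type fish for both. Adjusted over the 8 ratios tested, no p was under 0.4.

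**Figure D3:**
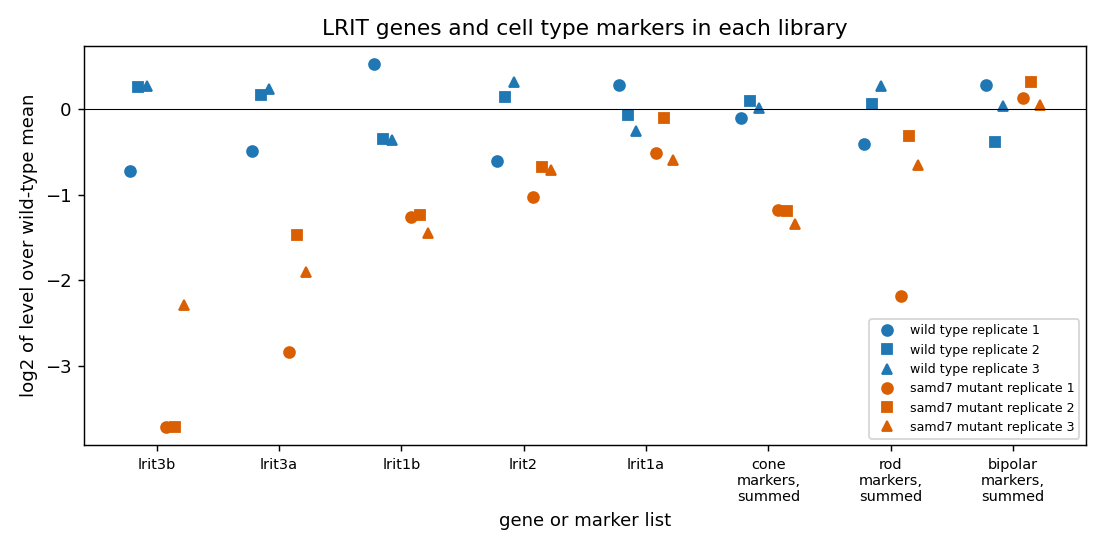
Log2 of the level in each library over the wild-type mean, for the 5 LRIT genes and the summed cone, rod and bipolar markers; colours are genotypes and shapes are replicate numbers. Mutant replicate 1 is the lowest library for lrit3a (-2.84) and for the rod markers (-2.19). The bipolar sum, mostly cabp5a, lies around 0 in both genotypes.

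Of the pentraxins, nptx2b was apart between the genotypes and the other members overlapped. NPTX2 is secreted and is induced by neuronal activity in mammals. The values of nptx2b were 239, 206 and 173 in the WT fish and 17.7, 32.4 and 14.4 in the mutant fish. The gap between the genotypes was wider than the spread within either (206 ± 32.7 and 21.5 ± 9.60, a 9.58-fold difference, log2 change -3.27, SE 0.34). The log2 change was -3.18 without mutant replicate 1 and -3.16 without wild-type replicate 1. By size of change nptx2b was number 13 from the lowest of the 11335 tested genes, next to lrit3b, and both were picked for large falls. The mutant values rest on 19, 31 and 17 reads, with 95% Poisson intervals of 11.4 to 29.7, 21.1 to 44.0 and 9.90 to 27.2. These intervals overlap, so the order of the mutants was not resolved.

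Its paralog nptx2a held 109, 114 and 183 in the WT fish and 91.5, 140 and 102 in the mutant fish. The genotypes overlapped, and no difference was called (135 ± 41.4 and 111 ± 25.7, log2 change -0.26, SE 0.28, adjusted p = 0.640). The log2 ratio of nptx2b to nptx2a in the same fish was 1.14, 0.86 and -0.07 in WT and -2.37, -2.11 and -2.82 in the mutants. The ratio was lower in every mutant than in any wild-type fish, which partly follows from the choice of nptx2b for its large fall.

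The gene nptx1l, a relative of the secreted pentraxin NPTX1, held 7319, 11418 and 8351 in the WT fish and 8767, 7818 and 6423 in the mutant fish. The ranges overlapped widely (9029 ± 2132 and 7669 ± 1179, log2 change -0.22, SE 0.19, adjusted p = 0.565). The gene nptxrb encodes a form of the pentraxin receptor NPTXR, which anchors pentraxin complexes in the membrane. Its values were 467, 527 and 818 in the WT fish and 832, 750 and 834 in the mutant fish, and it was the single member with a positive change (log2 change 0.46, SE 0.21, adjusted p = 0.272). Wild-type replicate 3 lay among the mutants. With library totals as the scaling, which moved the median of all tested genes upward, nptxrb was called higher (log2 change 0.81, adjusted p = 0.0420). The log2 ratio of nptxrb to nptx1l was -3.92 ± 0.54 in WT and -3.24 ± 0.26 in mutant fish (exact permutation test, two-sided, p = 0.3, adjusted p = 0.4).

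Genes that work with these families were then examined, along with relatives by structure. The lists of other leucine-rich repeat adhesion genes (43 entries, 10 tested) and other pentraxin genes (12 entries, 2 tested) held such relatives. They are counted among the partner lists here, so the pooled counts are not of partners alone. Of 114 entries in 5 partner lists, 50 were in the table and 45 were tested. Limma called 0 of them in either direction, with 5 lower and 12 higher at an unadjusted p under 0.05 (11.6% and 9.38% of all tested genes). The edgeR test also called 0, and DESeq2 called 4 lower and 4 higher (6.63% and 4.14% of all tested genes). Scaled by library totals, 1 was called lower and 21 higher (1.24% and 17.5% of all genes). These lists were written with earlier results of the data known.

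The ON bipolar cascade, which lies opposite LRIT3 in the cleft, had a median log2 change of 0.23 over 14 tested genes, against 0.01 over all genes. Of these, 10 were positive and 4 negative, with 4 higher and 2 lower at an unadjusted limma p under 0.05. Over all tested genes 9.38% were higher and 11.6% lower. Scaled by library totals the list's median was 0.58, against 0.36 over all tested genes. There, 7 were called higher and 0 lower (17.5% and 1.24% of all genes). The cascade's members of smallest p, gnb5b and the channel gene trpm1b, were both negative. The gene gnb5b encodes the G protein beta subunit that partners RGS proteins in bipolar cells and photoreceptors. The value of gnb5b was 19910 ± 5667 in WT and 9796 ± 873 in mutant fish (log2 change -0.99, adjusted p = 0.0549), and DESeq2 called it lower (0.000282). That of trpm1b was 1627 ± 283 and 1050 ± 185 (log2 change -0.63, adjusted p = 0.112; 0.0338 with DESeq2). Named for their place in the cascade after their values were seen, nyx, the gene of nyctalopin, was at 509 ± 34.9 and 463 ± 38.3 (log2 change -0.14, adjusted p = 0.554), and the receptor gene grm6b at 880 ± 60.8 and 1026 ± 16.3 (log2 change 0.22, adjusted p = 0.232). The copy trpm1a was at 721 ± 296 and 812 ± 186 (log2 change 0.24, adjusted p = 0.744). Of these 3, none passed the test.

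Of a list written as trans-synaptic partners of LRIT proteins, 4 of 15 entries were tested. The list was not restricted to genes acting opposite LRIT proteins, and the side of the synapse of these 4 was not examined. They were cacnb2b, cacnb2a, dag1 and dmd, and all 4 had negative changes (median -0.19). Scaled by library totals their median was 0.16, against 0.36 over all tested genes. The calcium channel subunit cacnb2b was at 2370 ± 507 and 1204 ± 230 (log2 change -0.97, adjusted p = 0.0638; 0.00103 with DESeq2). Its paralog cacnb2a was at 422 ± 55.7 and 355 ± 35.7 (log2 change -0.25, adjusted p = 0.384).

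AMPA receptors and their partners, the proteins on which pentraxins act, had a median log2 change of 0.27 over 15 tested genes, 13 of them positive. Ganglion cell markers were positive in 11 of 11 tested genes (median 0.75). Amacrine cell markers were positive in 9 of 11 and negative in 2 (median 0.27, and 0.62 with library totals). Limma and edgeR called 0 of these 11, and DESeq2 called 1 lower and 0 higher (6.63% and 4.14% of all tested genes). At an unadjusted limma p under 0.05, 1 was lower and 3 were higher (11.6% and 9.38% of all tested genes). The part of either cell type in the AMPA receptor values was not tested. With library totals the median of the AMPA list was 0.62, against the same 0.36. The receptor subunit gria2b held 627, 431 and 579 in the WT fish and 809, 815 and 835 in the mutant fish. The genotypes did not overlap, but the threshold was missed (log2 change 0.60, SE 0.15, adjusted p = 0.0887; 0.0188 with DESeq2). The subunit gria1a was at 451 ± 84.3 and 699 ± 85.3 (log2 change 0.64, adjusted p = 0.0924; 0.0200 with DESeq2). DESeq2 also called gria1b higher (0.0430) and the postsynaptic scaffold gene dlg4b lower (0.0159), which had limma adjusted p of 0.109 and 0.114 and were named after their values were seen. The protease gene adam17a, whose mammalian counterpart cleaves NPTXR, was at 667 ± 44.4 and 751 ± 76.6 (adjusted p = 0.458) and was likewise named after its values were seen.

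Of other leucine-rich repeat adhesion genes 10 were tested, with a median log2 change of 0.21. The values of islr2 were 2769 ± 249 and 3651 ± 383 (adjusted p = 0.121), and those of lrrn1 were 3242 ± 711 and 5482 ± 1322 (adjusted p = 0.136; 0.0313 with DESeq2). Of other pentraxin genes, the family of C-reactive protein, crp4 and crp7 were tested. Their adjusted p values were 0.694 and 0.696, and crp4 ranged from 4.38 to 235 within wild type.

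**Figure D4:**
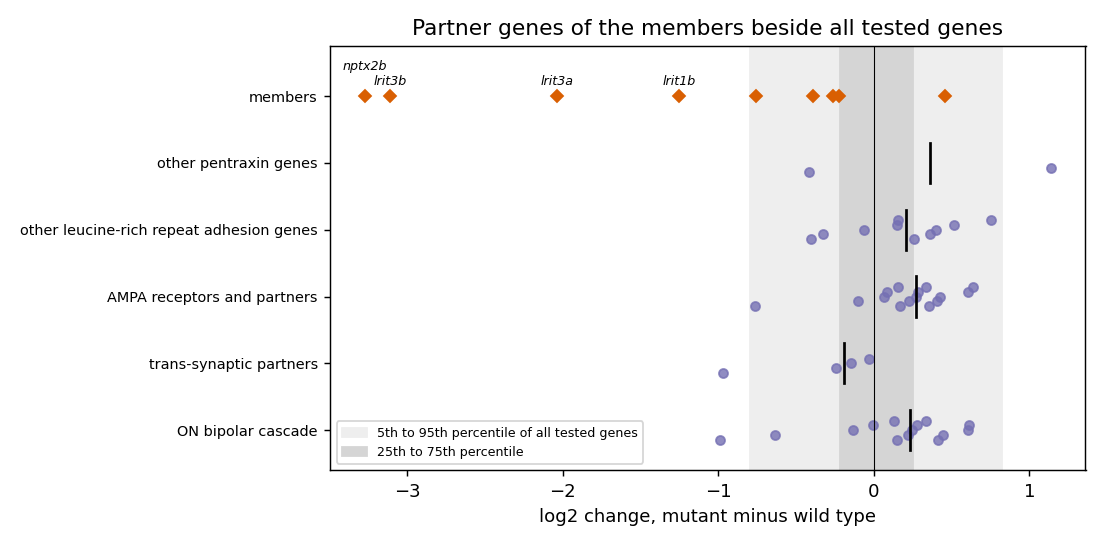
Log2 change, mutant minus wild type, of each tested gene of the partner lists (circles, with each list's median as a bar) and of the 9 members (diamonds). Shaded ranges are of all tested genes. Of the members chosen by name, lrit3a and lrit1b lie below the 5th percentile of all tested genes, which is -0.80. The genes nptx2b and lrit3b also lie there, but they were picked for their large falls. The list medians lie between -0.19 and 0.36.

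The genes most like lrit3b and nptx2b over the 6 libraries were listed as a description, since the points share genotype, library and depth, and 6 points give high correlations readily. For lrit3b these were tcta (Pearson r = 0.995), gpr107 (0.991), eif4ba (0.991), cmtr2 (0.989) and the green cone opsin opn1mw4 (0.989), and 76 of 7999 candidate genes had r above 0.95. With the genotype means removed, opn1mw4 was first, followed by hdlbpa, tcta, rnasen and fam162a. The opsin held 6478, 33129.5 and 34172 in the WT fish and 0, 0 and 8.46 in the mutant fish. Both genes were thus low in wild-type replicate 1 and highest among the mutants in replicate 3.

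For nptx2b the most alike were fbxo8 (Pearson r = 0.998), espn (0.998), atp2b1b (0.998), arl3l1 (0.997) and grtp1a (0.997), and 251 of the 7999 had r above 0.95. The actin-bundling gene espn, for example, had a mean of 2913 in WT and 1541 in mutant fish. With the genotype means removed the list was another, led by sgsm3, ccdc174, atp1b2a, znf1041 and mrpl1. Between the chosen genes themselves, r was 0.87 over all libraries and -0.71 with the genotype means removed. Among the WT fish, replicate 1 was the lowest for lrit3b and the highest for nptx2b.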

How the data were processed

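Retinal RNA from 3 WT and 3 samd7-/- males was sequenced as paired reads of 150 bp. Per the labels' protocols, cDNA came from 10 ng of RNA with 12 cycles of amplification, followed by 15 cycles of library PCR. The submitters' processing notes name the build danRer10 and, without their settings, the tools STAR 2.7.2b, Trim Galore 0.6.1, DESeq2 1.34.0, HTSeq 0.9.1 and R 4.1.3. The sources used here give neither the strand setting nor the annotation. The deposited signal values are read counts that the authors divided by a size factor per library (0.863 to 1.18). All values were whole multiples of the library's step within 0.01 reads, so whole reads were recovered. The authors also deposited log2 fold changes and adjusted p-values, per the file headers.

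Tests used limma 3.58.1 (R 4.3.3; trend, robust) on log2(value + 1) for genes with a value of at least 10 in 3 libraries. The edgeR 4.0.16 quasi-likelihood test, whose calls were 156 genes lower and 91 higher, and DESeq2 1.42.0 were run on recovered reads. The code was tested on simulated data. The members and gene lists were chosen with earlier results of these data known. The naming rule took every member and, of a list with no call, the 2 genes of smallest p. It also took the 5 genes most like lrit3b and nptx2b among those with a mean of at least 100. Partner entries were matched by symbol or RefSeq synonym (1 by synonym). The main test did not pair the fish by replicate number, as the labels give no pairing. Transcript lengths were not used, so ratios between genes are ratios of read counts within a fish and are compared between fish only.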

Additional observations from a re-analysis of the deposited data

How the results depend on the processing

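Over 16 alternatives, the sign of the change held in all of them for lrit1a, lrit1b, lrit2, lrit3a, lrit3b, nptx2b and nptxrb. The log2 changes ranged from -3.56 to -2.69 for lrit3b and from -3.60 to -2.81 for nptx2b. With library totals as the scaling, those of nptx1l and nptx2a turned to 0.13 and 0.087. The counts of genes called lower and higher were 751 and 469 with DESeq2, and 30 and 19 with limma without a trend. Library totals gave 1987 higher, 93.4% of its calls against 31.8%. With 1 library left out, 11 to 236 genes were lower and 4 to 130 higher. With the replicate number as a replicate block, 208 genes were lower and 81 higher, and lrit3a (adjusted p = 0.00916) and lrit1b were called. The labels do not say that same-numbered fish are paired. Across genes, deviations from the genotype means correlated at 0.19, -0.14 and 0.23 for same-numbered fish. For fish of different numbers the correlations ran from -0.34 to 0.17. These few values could not settle whether the fish were paired. The cause of these changes was not tested. For lrit3b and nptx2b, with 14.4 to 44.9 normalised reads in the mutants, counting error limits the size of the change.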
